A study of Mus musculus with 6 samples.

Results

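The genes described here are 37 genes of protein folding, quality control and stress signalling in the endoplasmic reticulum (ER) of mouse podocytes, taken by symbol after the version had been removed from the Ensembl identifiers. All 37 were found among the 57132 identifiers of the count table, and all 37 were among the 16263 genes that were expressed enough to be tested. RNA from 3 samples of immortalized WT podocytes (genotype Col4a3+/+, line IMWT) and 3 samples of immortalized Alport Syndrome (AS) podocytes (genotype Col4a3-/-, line IMAS) was sequenced. Podocytes are the epithelial cells that wrap the capillaries of the kidney glomerulus, and Alport Syndrome is a kidney disease caused by loss of type IV collagen chains such as the one Col4a3 encodes. Both lines came from male mice of 8 weeks, were grown untreated at 33 °C with 20 U/mL interferon gamma and 10% serum, and were differentiated at 37 °C for 14 days. For the differentiation time and the interferon dose the study's methods give other values than the sample records used here. The lines carry the temperature-sensitive large T antigen of the immortomouse, each genotype was represented by 1 line, and genotype and line cannot be told apart. Whether the numbered sets were separate cultures was not stated, so p-values measure only the spread between these samples, which may be technical.

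The ER folds secreted and membrane proteins with the help of chaperones, disulfide isomerases and a lectin cycle that reads N-glycans. When unfolded proteins accumulate, the sensors PERK, IRE1 and ATF6 start the unfolded protein response (UPR). PERK slows translation through eIF2 alpha and favours translation of ATF4, IRE1 splices the Xbp1 messenger RNA, and ATF6 is cut in the Golgi to release a transcription factor. Podocytes secrete the collagen chains of the glomerular basement membrane, and ER stress is a known feature of several inherited podocyte diseases. Gene counts report mRNA level only, so phosphorylation of the sensors, Xbp1 splicing and cleavage of ATF6 were not measured here.

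The total count lay between 45417221 and 54290968 per sample. Levels are given as CPM, the count of a gene relative to the TMM-scaled library total. Each comparison is given as the log2 fold change of AS over WT with its standard error (SE) and the two-sided p of edgeR's quasi-likelihood test, adjusted by Benjamini and Hochberg's method over all 16263 genes. A gene is called where that adjusted p was under 0.05. Col4a3 was 938, 1052 and 1272 CPM in the WT samples and 62.4, 61.2 and 82.9 CPM in the AS samples. Reads of the gene were thus reduced but present in the AS samples, and counts per gene do not show whether they lie outside the deleted part. The labelled cell type was only partly borne out by its markers. Tcf21, a transcription factor of the podocyte lineage, had no count in any sample, and Nphs1 and Ptpro were under 1 CPM, whereas Synpo and Actn4 were high in all 6 samples. The summed level of the podocyte markers was 1779 to 1949 CPM in WT and 1367 to 1445 CPM in AS samples, and Wt1 was 25.8, 15.3 and 20.7 CPM in WT against 2.93, 1.44 and 3.14 CPM in AS samples. The sums of 5 endothelial and 5 immune markers were at most 12.1 CPM in every sample, while 4 parietal epithelial markers summed to 642 to 672 CPM in WT and 503 to 533 CPM in AS samples. The 4 mesangial and pericyte markers summed to 248 to 275 CPM in WT and 122 to 124 CPM in AS samples, nearly all of it Pdgfrb, which was lower in AS podocytes (log2 fold change -1.12, SE 0.06, adjusted p = 8.7e-07). The 6 tubular markers summed to 246 to 308 CPM in WT and 197 to 307 CPM in AS samples, nearly all of it Lrp2, with Umod and Aqp2 at no count. The part of these marker differences in the values below was not tested. In these bulk samples, fewer cells of a type and less RNA per cell cannot be told apart. WT sample 1 stood apart from the other WT samples (chi-square per degree of freedom 43.0 and 45.2, against 9.06 to 20.6 for the other pairs of a genotype), and values that turn on it are given with and without it.

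The promoters of these genes hold the sequence elements through which the arms of the response are known to act. Promoter windows of 300 bases, from 250 bases before to 50 bases after the transcript start, were taken from RefSeq (GRCm38.p6) for 32 of the 37 genes, 2 of them by synonym, and 1 of the 32 had more than 1 window. Each was searched on both strands, with overlaps allowed, for exact matches to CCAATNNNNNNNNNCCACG (the ER stress element ERSE, bound by ATF6 and XBP1 with NF-Y), ATTGGNCCACG (ERSE-II), TGACGTG (the core of the UPR element, bound by XBP1 and ATF6) and TGATGNAA (the C/EBP-ATF element, bound by ATF4 and CHOP). ERSE was found in 10 of the 32 genes, or 31.3%, against 0.137% of all 27025 genes with a window. ERSE-II was found in Dnajb11 and Herpud1, against 0.0444% of all genes. The UPR element core was found in Hspa5 alone of these genes, against 2.22% of all genes. The C/EBP-ATF element was found in 5 genes, Atf3, Trib3, Chac1, Asns and Herpud1, against 4.51% of all genes. The 37 genes were listed for their known part in this response, so these shares are no independent support for it. A match is a description of these letters and not a shown binding site.

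Of the genes with a matched element, 7 are printed because their values are set against each other below. They comprise 3 chaperone promoters with ERSE whose genes differed in their calls, the Herpud1 promoter, and 3 promoters with the C/EBP-ATF element. They are written 5′ to 3′ on the strand of the gene, up to the base before the transcript start (for Trib3, to 22 bases past it), with the fixed letters of each element in capitals. An element on the other strand appears as its reverse complement.
Hspa5, chr2:34771840-34772089, plus strand, GRCm38.p6: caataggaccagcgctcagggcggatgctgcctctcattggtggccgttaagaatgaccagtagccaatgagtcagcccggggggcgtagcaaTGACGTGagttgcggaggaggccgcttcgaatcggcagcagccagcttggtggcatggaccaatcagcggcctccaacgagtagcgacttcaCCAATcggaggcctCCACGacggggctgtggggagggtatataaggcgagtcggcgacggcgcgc
Hsp90b1, chr10:86705445-86705694, minus strand, GRCm38.p6: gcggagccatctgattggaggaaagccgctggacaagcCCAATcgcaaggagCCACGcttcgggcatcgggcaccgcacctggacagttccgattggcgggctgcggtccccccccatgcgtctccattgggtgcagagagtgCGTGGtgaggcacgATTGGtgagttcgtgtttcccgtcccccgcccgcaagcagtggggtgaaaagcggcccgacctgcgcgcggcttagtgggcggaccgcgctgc
Dnajc3, chr14:118937682-118937931, plus strand, GRCm38.p6: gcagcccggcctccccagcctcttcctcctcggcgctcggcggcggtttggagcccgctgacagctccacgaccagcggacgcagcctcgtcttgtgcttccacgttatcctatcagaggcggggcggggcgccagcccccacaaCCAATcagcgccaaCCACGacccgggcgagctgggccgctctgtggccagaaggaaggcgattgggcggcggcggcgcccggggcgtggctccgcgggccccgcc
Herpud1, chr8:94386179-94386428, plus strand, GRCm38.p6: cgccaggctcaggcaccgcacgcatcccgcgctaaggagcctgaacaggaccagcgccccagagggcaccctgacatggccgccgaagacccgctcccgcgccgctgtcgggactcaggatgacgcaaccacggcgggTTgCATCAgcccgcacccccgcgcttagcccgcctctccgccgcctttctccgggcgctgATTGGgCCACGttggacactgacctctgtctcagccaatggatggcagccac
Trib3, chr2:152344039-152344310, minus strand, GRCm38.p6: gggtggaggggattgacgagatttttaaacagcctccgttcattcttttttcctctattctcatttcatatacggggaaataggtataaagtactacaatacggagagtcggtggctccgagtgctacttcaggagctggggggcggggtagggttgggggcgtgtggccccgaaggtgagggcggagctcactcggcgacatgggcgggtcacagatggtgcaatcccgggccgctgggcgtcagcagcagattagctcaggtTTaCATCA
Chac1, chr2:119350992-119351241, plus strand, GRCm38.p6: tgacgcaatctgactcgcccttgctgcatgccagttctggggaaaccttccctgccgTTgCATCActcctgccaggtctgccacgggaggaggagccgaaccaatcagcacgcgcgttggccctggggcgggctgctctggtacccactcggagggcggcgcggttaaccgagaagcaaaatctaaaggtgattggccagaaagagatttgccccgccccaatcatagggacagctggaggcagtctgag
Asns, chr6:7693210-7693459, minus strand, GRCm38.p6: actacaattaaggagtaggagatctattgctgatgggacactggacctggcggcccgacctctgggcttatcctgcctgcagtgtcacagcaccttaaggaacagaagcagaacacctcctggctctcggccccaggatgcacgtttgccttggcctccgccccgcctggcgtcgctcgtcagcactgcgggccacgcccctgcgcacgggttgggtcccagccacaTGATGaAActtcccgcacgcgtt

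Counting the first transcribed base as 0, the ERSE of Hspa5 began at -65 and its UPR element core at -157. Hsp90b1 held ERSE at -212 and, on the other strand, at -107, and Dnajc3 held it at -105. In Herpud1 the ERSE-II began at -52 and the C/EBP-ATF element at -112. The C/EBP-ATF element began at 14 in Trib3, at -193 in Chac1 and at -23 in Asns. Genes with the same element did not all share a call. Of the 12 genes with ERSE or ERSE-II, 2 were higher in AS podocytes (Hsp90b1, Herpud1), 1 was lower (Dnajc3) and 9 were not called. Both higher genes lost their calls once the median log2 fold change of their chromosome was subtracted. Of the 5 genes with the C/EBP-ATF element, 3 were higher (Trib3, Chac1, Herpud1), none was lower and 2 were not called (Atf3, Asns). Of all genes tested, 20.4% were higher and 19.6% were lower, and the difference from these counts was not tested.

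**Figure D1:**
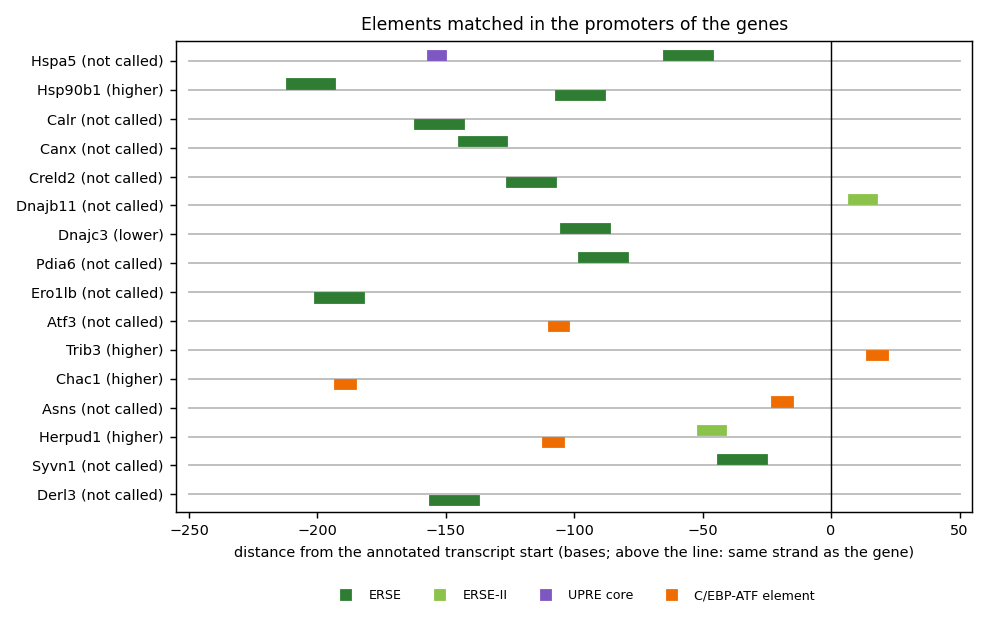
Positions of matched elements in the promoters of the 16 genes that held one, as distance in bases from the annotated transcript start (x axis), with each gene's call in AS over WT beside its name. Marks above a line lie on the strand of the gene and marks below it on the other strand. Green marks (ERSE) lie upstream of the start in all 10 genes that hold one. Of these, 1 was higher and 1 lower, against 20.4% and 19.6% of all genes tested, and 8 were not called.

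The 37 genes did not move in one direction in AS podocytes. Of the 37 genes, 17 were called, or 45.9%, against 40.1% of all genes tested, so that the share of called genes was near that of the whole table. The 17 genes comprised 8 higher (21.6%, against 20.4% of all genes) and 9 lower (24.3%, against 19.6%). The median log2 fold change was -0.0062 over the 37 genes and 0.0061 over all genes, and the median size of the change was 0.19 against 0.28. No gene of the 37 changed by over 2-fold, whereas 13.0% of all genes did, and the closest was Ddit3. All genes tested include genes of low count, and these comparisons of size were not matched for level. The CPM of the 3 WT and 3 AS samples did not overlap in 23 of the 37 genes (52.3% of all genes), 13 of them higher (26.4%) and 10 lower (26.0%). All 17 called genes were among those 23. The other 6 were Dnajb11, which was lower, and Creld2, Derl1, Syvn1, Ero1lb and Derl3, which were higher, and none of these passed the test.

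**Figure D2:**
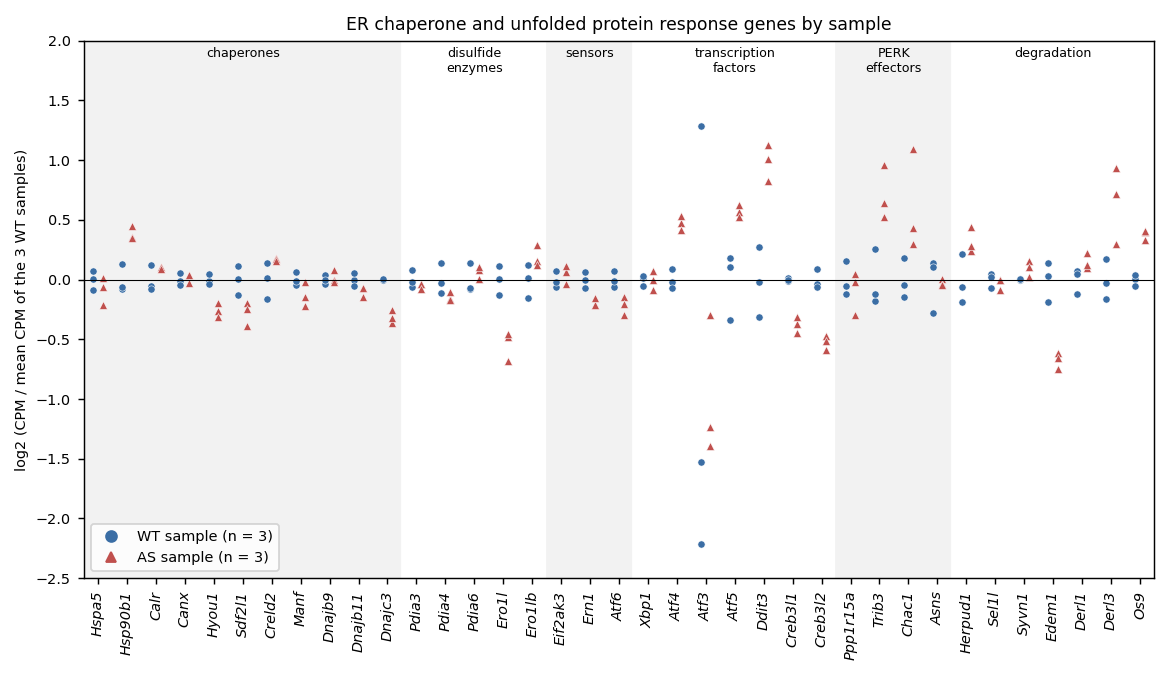
Level of each of the 37 genes in the 6 samples as log2 of CPM over the mean CPM of the 3 WT samples (y axis), with genes ordered by role (x axis), circles for WT and triangles for AS samples. AS triangles of Ddit3, Atf4 and Atf5 lie above all WT circles, those of Edem1, Ero1l and Creb3l2 lie below, and Atf3 spreads most, with WT sample 1 far above the other WT samples.

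The ER chaperones hold nascent proteins in a foldable state. Of the 11 chaperone and cochaperone genes, 1 was higher (Hsp90b1), 3 were lower (Hyou1, Sdf2l1, Dnajc3) and 7 were not called. Over all genes tested, 20.4% were higher and 19.6% were lower. Hspa5 encodes BiP, the Hsp70 chaperone that restrains the 3 sensors and is the most used marker of the UPR. Its CPM was 974, 1020 and 914 in WT and 928, 980 and 836 in AS samples. These ranges overlapped, and the log2 fold change was -0.08 (SE 0.08, adjusted p = 0.426, 95% interval -0.26 to 0.09). Hsp90b1 encodes GRP94, the Hsp90 of the ER, which folds integrins and Toll-like receptors. It was 709, 818 and 717 CPM in WT and 959, 1022 and 951 CPM in AS samples. Every AS sample was above every WT sample, with a log2 fold change of 0.39 (SE 0.07, adjusted p = 0.0029), a 1.31-fold difference.

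Hsp90b1 lies on chromosome 10, where the median of all genes was also higher, and with the chromosome medians removed its call was lost (0.06, adjusted p = 0.567). On a scale per length (RPKM, which is CPM per kilobase of exon), the ratio of Hsp90b1 to Hspa5 was 0.764, 0.841 and 0.822 in WT and 1.08, 1.09 and 1.19 in AS samples. Hspa5 stood above Hsp90b1 in each WT sample and below it in each AS sample. This order rests on the annotated exon lengths (4229 bases for Hspa5, 4032 for Hsp90b1), and their fit to the transcripts present was not tested. Calr and Canx encode the lectins calreticulin and calnexin, which hold glycoproteins in the folding cycle. Calr was 1526, 1720 and 1499 CPM in WT and 1704, 1701 and 1680 CPM in AS samples (log2 fold change 0.10, SE 0.07, adjusted p = 0.308). Canx was 1170, 1225 and 1144 CPM in WT and 1214, 1210 and 1155 CPM in AS samples (0.02, SE 0.06, adjusted p = 0.863). Neither lectin passed the test, and a pseudogene of Calr is annotated, with which its reads could be shared.

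Hyou1 encodes GRP170, a large Hsp70-like chaperone that exchanges the nucleotide of BiP. It was 393, 407 and 385 CPM in WT and 329, 345 and 318 CPM in AS samples, with no overlap (log2 fold change -0.26, SE 0.06, adjusted p = 0.0068). Dnajc3 encodes p58IPK, a BiP cochaperone that also inhibits eIF2 alpha kinases. It was 202, 201 and 203 CPM in WT and 157, 169 and 161 CPM in AS samples, a fall beyond the spread of either group (-0.31, SE 0.05, adjusted p = 0.0014). Sdf2l1, a partner of the ER DnaJ proteins, was 23.9, 26.1 and 28.2 CPM in WT and 22.7, 21.9 and 20.0 CPM in AS samples (-0.28, SE 0.08, adjusted p = 0.026). The groups of Sdf2l1 were barely apart, and its call was lost without WT sample 2 or 3 or AS sample 2 or 3 (-0.29 to -0.22, adjusted p up to 0.109).

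The other 4 genes of this group, the stress-induced secretory proteins Manf and Creld2 and the BiP cochaperones Dnajb9 and Dnajb11, were not called, with log2 fold changes between -0.13 (Manf) and 0.17 (Creld2). Creld2 was 46.5, 50.7 and 41.3 CPM in WT and 52.4, 52.0 and 51.4 CPM in AS samples, so that the groups did not overlap while the WT samples spread (adjusted p = 0.109, and 0.039 without WT sample 2). Dnajb9, a strongly XBP1-dependent gene, was 48.3, 51.1 and 49.7 CPM in WT and 52.4, 49.7 and 49.0 CPM in AS samples. Its log2 fold change of 0.02 (SE 0.06) had a 95% interval of -0.11 to 0.15.

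Of the 5 genes for disulfide bond formation, 1 was lower (against 19.6% of all genes tested) and 4 were not called. Ero1l encodes ERO1 alpha, the oxidase that recharges protein disulfide isomerase and is a target of CHOP. It was 93.5, 102 and 110 CPM in WT and 73.3, 74.2 and 63.4 CPM in AS samples. All AS samples lay below all WT samples (log2 fold change -0.54, SE 0.08, adjusted p = 7.0e-04). Its paralogue Ero1lb was far lower, between 2.47 and 3.37 CPM in all 6 samples, and was not called (0.19, SE 0.16, adjusted p = 0.382). The disulfide isomerases Pdia3, Pdia4 and Pdia6 had log2 fold changes of -0.05, -0.14 and 0.06, with adjusted p of 0.594, 0.142 and 0.513. The summed level of the 16 folding genes (11 chaperones and 5 disulfide genes) was 7084 ± 386 CPM over the WT samples (SD, n = 3). Over the AS samples it was 7188 ± 213 CPM (SD, n = 3), a ratio of 1.01, so the sum differed by less than its spread.

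**Figure D3:**
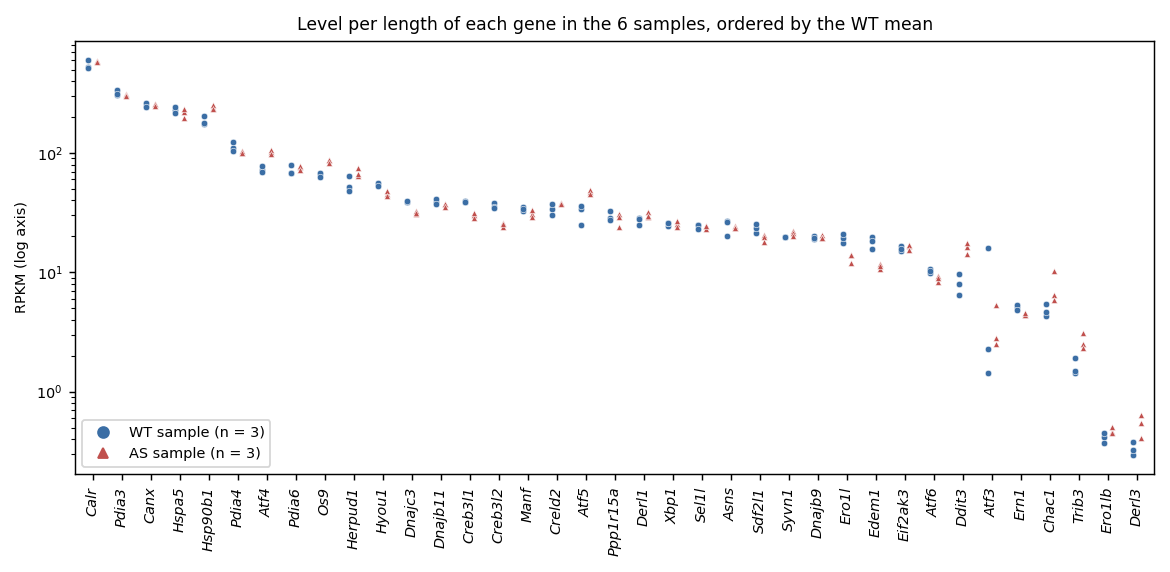
RPKM of each gene in the 6 samples on a log axis (y axis), with genes ordered by their WT mean (x axis), circles for WT and triangles for AS samples. Calr is highest in both genotypes, Hsp90b1 passes above Hspa5 in AS samples, and Ero1lb and Derl3 are lowest.

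Per length, the lectins, Pdia3 and the major chaperones stood highest in both lines. In WT samples Calr had 549 ± 41.9 RPKM (SD, n = 3), Pdia3 had 317 ± 15.9 RPKM, Canx had 251 ± 8.89 RPKM and Hspa5 had 229 ± 12.6 RPKM. The WT samples of Canx lay between 244 and 261 RPKM and those of Hspa5 between 216 and 241 RPKM, so these neighbours in the order were barely apart. The transcription factors were lower and spread widely, from 72.9 ± 4.09 RPKM for Atf4 to 8.01 ± 1.62 RPKM for Ddit3 and 6.61 ± 8.24 RPKM for Atf3. The sensors ran from 15.8 ± 0.734 RPKM for Eif2ak3 and 10.2 ± 0.484 RPKM for Atf6 to 5.07 ± 0.244 RPKM for Ern1. The lowest genes were Trib3 (1.61 RPKM), Ero1lb (0.413 RPKM) and Derl3 (0.333 RPKM). Atf5 moved from rank 18 of 37 in WT to rank 11 in AS samples, Creb3l2 from rank 15 to rank 21 and Ddit3 from rank 31 to rank 28.

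Of the 3 sensor genes, 2 were lower in AS podocytes by small amounts (against 19.6% of all genes tested). Eif2ak3, which encodes PERK, was 91.4, 100 and 94.0 CPM in WT and 99.5, 103 and 92.6 CPM in AS samples, with overlapping groups (log2 fold change 0.05, SE 0.06, adjusted p = 0.577). Ern1, which encodes IRE1 alpha, was 41.5, 43.5 and 39.5 CPM in WT and 35.9, 35.8 and 37.3 CPM in AS samples (-0.19, SE 0.06, adjusted p = 0.036). Atf6 was 99.3, 90.4 and 93.9 CPM in WT and 85.5, 77.1 and 82.1 CPM in AS samples (-0.21, SE 0.06, adjusted p = 0.020). The groups of Ern1 and Atf6 did not overlap, but Ern1 lost its call without WT sample 2 or any 1 of the AS samples (adjusted p up to 0.121), and Atf6 without WT sample 3 or AS sample 2 or 3 (up to 0.076).

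In the PERK arm, 5 of the 10 genes placed there were higher (20.4% of all genes tested) and 1 was lower (Ero1l, against 19.6%), and 4 were not called. Placement of a gene in an arm follows its best known regulator, and many of these genes respond to more than 1 arm. It was made with earlier results of these data known, so the counts by arm are a description only. Atf4 encodes the transcription factor that PERK and the other eIF2 alpha kinases induce, mainly at translation. Its mRNA was 170, 182 and 163 CPM in WT and 238, 248 and 230 CPM in AS samples. The lowest AS sample was above the highest WT sample (log2 fold change 0.47, SE 0.06, adjusted p = 3.0e-04, 1.39-fold). Atf5, a related factor under similar translational control, was 49.8, 67.9 and 71.3 CPM in WT and 93.1, 97.4 and 90.5 CPM in AS samples (0.57, SE 0.12, adjusted p = 0.0037). WT sample 1 was the lowest for Atf5, and the change without that sample was 0.43 (adjusted p = 2.0e-04).

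Ddit3 encodes CHOP, the ATF4-induced factor linked to cell death in long ER stress. It was 11.0, 16.6 and 13.5 CPM in WT and 27.7, 29.9 and 24.3 CPM in AS samples. The AS samples were all above the WT samples, at 1.99-fold the level (log2 fold change 0.99, SE 0.14, adjusted p = 4.9e-04), the largest increase among the 37 genes. The ratio of Ddit3 to Atf4 in CPM was 0.0650, 0.0909 and 0.0829 in WT and 0.116, 0.121 and 0.106 in AS samples. The gene Mars, for a tRNA synthetase that is itself an ATF4 target, overlaps Ddit3 on the other strand and was also higher in AS podocytes (0.43, SE 0.05, adjusted p = 1.8e-04). Whether the counting used strand was not given, so reads in that overlap cannot be assigned. Atf5 likewise overlaps Nup62 and Il4i1 on the other strand, of which Nup62 had a log2 fold change of 0.01. In all, 13 of the 37 genes overlap a gene on the other strand and 7 overlap one on their own strand.

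Trib3 and Chac1 are targets of ATF4 and CHOP, a pseudokinase and a glutathione-degrading enzyme, and both were low and higher in AS podocytes. Trib3 was 3.02, 4.08 and 3.14 CPM in WT and 6.64, 5.33 and 4.91 CPM in AS samples (log2 fold change 0.72, SE 0.18, adjusted p = 0.011). Chac1 was 7.04, 8.82 and 7.54 CPM in WT and 16.7, 10.5 and 9.59 CPM in AS samples (0.65, SE 0.20, adjusted p = 0.028). AS sample 1 was far above the other AS samples for Chac1, and without it the change was 0.36 with an adjusted p of 0.083. Without WT sample 3 the change of Chac1 also missed the threshold, at 0.62 (adjusted p = 0.076).

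Other genes of the same arm did not follow. Asns, the asparagine synthetase that ATF4 induces on amino acid shortage, was 54.9, 73.2 and 71.7 CPM in WT and 66.9, 64.9 and 64.5 CPM in AS samples (log2 fold change -0.02, SE 0.10, adjusted p = 0.868). The AS samples of Asns lay inside the WT range, and without WT sample 1 its change was -0.15 (adjusted p = 0.053). Ppp1r15a encodes GADD34, which brings the phosphatase back to eIF2 alpha. It was 96.8, 84.1 and 80.3 CPM in WT and 90.0, 86.1 and 70.9 CPM in AS samples (-0.08, SE 0.10, adjusted p = 0.551). Atf3, an early stress factor, was 34.7, 4.94 and 3.08 CPM in WT and 11.6, 6.05 and 5.41 CPM in AS samples. WT sample 1 was high for Atf3, and the log2 fold change of -0.90 (SE 0.75, adjusted p = 0.377) turned to 0.93 with an adjusted p of 0.037 without that sample. No direction was read from Atf3. Without WT sample 1 all 17 other calls were kept.

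**Figure D4:**
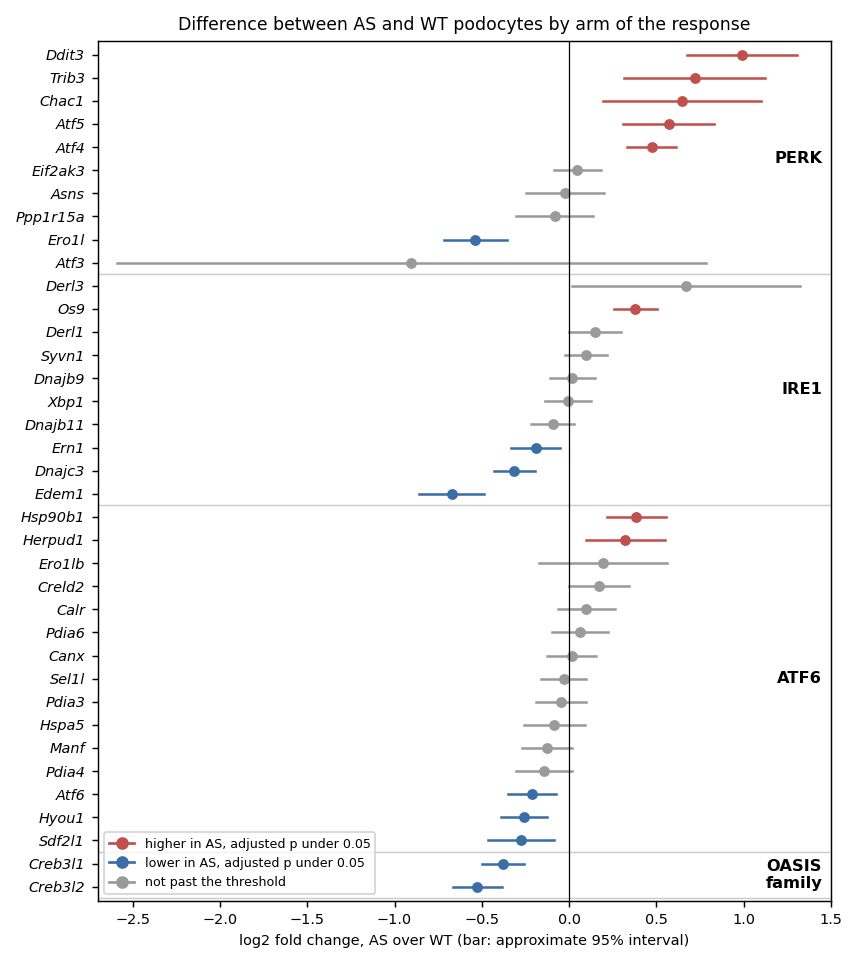
Log2 fold change of AS over WT for each of the 37 genes (x axis) with its approximate 95% interval (bars), grouped by arm of the response and ordered by value, red for higher, blue for lower and grey for not called. In the PERK group 5 of 10 genes are red, against 1 of 10 in the IRE1 group and 2 of 15 in the ATF6 group, while 20.4% of all genes tested were higher. The genes were placed in arms with earlier results of these data known. The interval of Derl3 is also clear of 0, but its adjusted p of 0.096 missed the threshold.

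In the IRE1 arm, 1 of 10 genes was higher (Os9), 3 were lower (Ern1, Dnajc3, Edem1) and 6 were not called. Xbp1, the transcription factor made after IRE1 splices its mRNA, was 79.9, 83.9 and 84.9 CPM in WT and 82.5, 87.0 and 78.2 CPM in AS samples. The total Xbp1 mRNA had a log2 fold change of -0.01 (SE 0.06, adjusted p = 0.945, 95% interval -0.14 to 0.13), which says nothing of its spliced share. In the ATF6 arm, 2 of 15 genes were higher (Hsp90b1, Herpud1), 3 were lower (Hyou1, Sdf2l1, Atf6) and 10 were not called. The shares over all genes tested were 20.4% higher and 19.6% lower, and the difference between arms was not tested.

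Creb3l1 and Creb3l2 encode OASIS and BBF2H7, ER-bound factors that are cut like ATF6 and are known for driving collagen secretion in bone and cartilage. Both were lower in AS podocytes. Creb3l1 was 101, 102 and 101 CPM in WT and 78.1, 74.3 and 81.5 CPM in AS samples (log2 fold change -0.38, SE 0.05, adjusted p = 5.1e-04). Creb3l2 was 278, 256 and 252 CPM in WT and 189, 174 and 183 CPM in AS samples (-0.53, SE 0.06, adjusted p = 1.7e-04). The groups of both genes were separated by more than the range within either group.

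ER-associated degradation returns misfolded proteins to the cytosol for the proteasome. Of its 7 genes, 2 were higher (20.4% of all genes tested), 1 was lower (19.6%) and 4 were not called. The largest differences went in opposite directions. Edem1, a lectin that takes mannose-trimmed glycoproteins out of the folding cycle, was 101, 127 and 117 CPM in WT and 75.2, 68.5 and 72.8 CPM in AS samples. It was the most reduced called gene of the 37 (log2 fold change -0.67, SE 0.08, adjusted p = 2.2e-04, 1.59-fold lower). Os9, the lectin that delivers such proteins to the ligase complex, was 174, 178 and 167 CPM in WT and 228, 230 and 218 CPM in AS samples (0.38, SE 0.05, adjusted p = 5.3e-04, and 0.06 with an adjusted p of 0.463 once the chromosome medians were removed). Herpud1, a scaffold of the ligase complex, was 149, 122 and 112 CPM in WT and 174, 150 and 155 CPM in AS samples (0.32, SE 0.10, adjusted p = 0.029). The groups of Herpud1 were barely apart. Its call was lost without WT sample 2 or 3 or AS sample 1 or 3 (0.24 to 0.34, adjusted p up to 0.114). It was also lost with the chromosome medians removed (-0.0011, adjusted p = 0.996). Without WT sample 1, the highest WT sample for Herpud1, the change was 0.45 and the call was kept.

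The ligase complex itself differed little. Sel1l, its adaptor, had a log2 fold change of -0.03 (SE 0.06) and Syvn1, the ubiquitin ligase HRD1, of 0.10 (SE 0.05), with adjusted p of 0.694 and 0.177. Derl1, a channel component, was 83.3, 95.3 and 93.6 CPM in WT and 106, 96.8 and 98.6 CPM in AS samples (0.15, SE 0.07, adjusted p = 0.109). Derl3, a UPR-induced relative, was 0.592, 0.748 and 0.650 CPM in WT and 1.09, 1.27 and 0.818 CPM in AS samples (0.67, SE 0.29, adjusted p = 0.096). Both Derlin genes had AS samples above all WT samples without passing the test.

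Calls in both directions were unevenly spread over the chromosomes, among all genes and among these. The median log2 fold change of all expressed genes (mean log2 CPM above 2) was 0.32 on chromosome 8, 0.32 on chromosome 10 and 0.20 on chromosome 15, against -0.20 on chromosome 6. It was also 0.20 on chromosome 5, which holds none of the 37 genes, and 0.19 on chromosome 19, which holds Syvn1. Of the 9 genes on chromosomes 8, 10 and 15, 5 were higher (Herpud1, Hsp90b1, Ddit3, Os9, Atf4) and none was lower, whereas of the other 28 genes 3 were higher and 9 were lower. Of all genes tested on those 3 chromosomes 48.1% were higher and 7.68% were lower, and of all other genes 16% were higher and 21.6% were lower. When the median of its chromosome was subtracted from each gene, 12 of the 17 calls were kept and 2 were gained. Hsp90b1 then had a log2 fold change of 0.06 (SE 0.07, adjusted p = 0.567), Os9 of 0.06 (SE 0.05, adjusted p = 0.463) and Herpud1 of -0.0011 (SE 0.10, adjusted p = 0.996). Sdf2l1 and Ern1 also lost their calls (adjusted p = 0.079 and 0.078). Calr became lower (-0.22, SE 0.07, adjusted p = 0.039) and Eif2ak3, on chromosome 6, became higher (0.25, SE 0.06, adjusted p = 0.012).

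**Figure D5:**
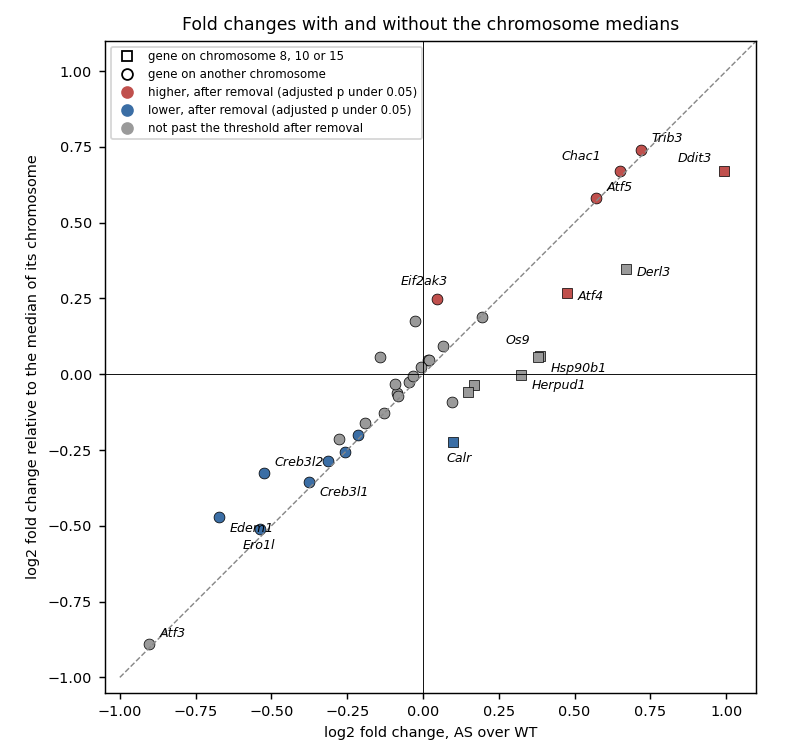
Log2 fold change of AS over WT for each of the 37 genes (x axis) against the same value after the median of its chromosome was removed (y axis), squares for genes on chromosomes 8, 10 and 15 and circles for the others, coloured by the call after removal. Hsp90b1, Os9 and Herpud1 drop to near 0, whereas Ddit3 and Atf4 drop and stay above it.

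The 5 genes of the PERK arm that were called higher kept their calls on this scale. Atf4 was higher by 0.27 (SE 0.06, adjusted p = 0.0086) and Ddit3 by 0.67 (SE 0.14, adjusted p = 0.0053) relative to the median of their chromosomes. Atf5 (0.58), Trib3 (0.74) and Chac1 (0.67) lie on chromosomes 7 and 2 and moved little. The decreases of Edem1 (-0.47, adjusted p = 0.0020) and Creb3l2 (-0.33, adjusted p = 0.0032), both on chromosome 6, were smaller on this scale and were kept, as were those of Ero1l, Dnajc3, Creb3l1 and Hyou1.

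Other genes of the same pathways gave counts in both directions. These are to be read against 20.4% of all genes tested that were higher and 19.6% that were lower. The chromosome medians (0.32 on chromosomes 8 and 10, 0.20 on chromosome 15) were not subtracted from the values of these lists. A chromosome is named for only some of the genes below, and others can lie on chromosomes 8, 10 or 15 too. The part of those medians in the values was not tested. The 26 further ATF4 targets for amino acid supply had a median log2 fold change of 0.048, against 0.0061 over all genes tested. Of them, 11 were higher, 3 were lower and 12 were not called. By the smallest adjusted p these were led by the glutamine transporter Slc1a5 (log2 fold change 1.20, SE 0.11, adjusted p = 4.6e-05) and the tRNA synthetases Aars (0.50, SE 0.06) and Mars (0.43, SE 0.05), which lie on chromosomes 8 and 10. The 3 lower genes, named after their values were seen, were Cbs (-1.60, SE 0.20) and Cth (-1.45, SE 0.20), which make cysteine from homocysteine, and the folate enzyme Mthfd2 (-0.34, SE 0.12). Of 18 other genes of the PERK and integrated stress response, 7 were higher and 4 were lower. The median log2 fold change of the 18 was 0.0065. Gdf15, a secreted stress cytokine, was 888, 775 and 791 CPM in WT and 268, 237 and 211 CPM in AS samples, a fall of far more than the spread (-1.78, SE 0.10, adjusted p = 1.2e-06). Bbc3, which encodes the death factor PUMA, was higher by 0.71 (SE 0.06, adjusted p = 3.1e-05), and Ddit4, an mTOR inhibitor, by 0.69 (SE 0.07, adjusted p = 4.5e-05).

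Of 10 other tested genes of the ATF6 and IRE1 arms and the site-1 protease pathway, 3 were higher and 4 were lower. Wfs1, an ER membrane protein that restrains ATF6, was lower (log2 fold change -0.68, SE 0.09, adjusted p = 3.6e-04), Mbtps1, the site-1 protease that cuts ATF6, was higher (0.41, SE 0.07, adjusted p = 0.0011) and Creb3 was lower (-0.40, SE 0.06, adjusted p = 0.0011). Ern2, the gut form of IRE1, had no count in any AS sample and was not tested. Of 24 translocon and signal peptide genes, 3 were higher and 6 were lower, with Spcs3 (0.91, SE 0.08), Sec63 (0.37, SE 0.06) and Spcs2 (-0.33, SE 0.06) at the smallest adjusted p. Both named subunits of the signal peptidase, Spcs3 and Spcs2, differed in direction, and Spcs3 lies on chromosome 8.

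Of 23 other tested disulfide isomerases and cochaperones, 5 were higher and 7 were lower, led by the oxidase Qsox1 (log2 fold change 0.68, SE 0.06, adjusted p = 2.4e-05), Tmx3 (-0.44, SE 0.05) and Dnajb12 (0.36, SE 0.06). Of 15 tested genes of the N-glycan folding cycle, 2 were higher and 3 were lower, the lower ones being Uggt2 (-0.40, SE 0.06), a paralogue of the glucosyltransferase that checks glycoprotein folding, and Rpn1 (-0.31, SE 0.06) and Dad1 (-0.28, SE 0.06), subunits of the oligosaccharyltransferase. Of 24 further degradation genes, 6 were higher and 6 were lower, with Erlin2 (0.46, SE 0.06) and Rnf139 (0.41, SE 0.06) higher and the ubiquitin-conjugating enzyme Ube2j1 lower (-0.31, SE 0.05). These lists had median log2 fold changes of -0.01, -0.10 and -0.07.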

How the data were processed

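The authors deposited raw counts of reads per gene for 6 samples, without normalization. The submitters' processing notes name FastQC, Trim Galore, STAR, edgeR and the build mm39. Not given in the sources used here were the counting tool, its strand setting and the annotation release. The mRNA libraries had 15 cycles of PCR and total counts of 45417221 to 54290968. The use of molecular identifiers was not stated, so reads need not be independent molecules.

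Symbols came from GENCODE M21 (GRCm38), which matched 51880 of 57132 identifiers without version, while the rest held 0.363% of counts. In edgeR 4.0.16 (R 4.3.3), genes passed filterByExpr (at least 10 counts, at least 15 in total), were scaled by TMM and were tested by quasi-likelihood F-test for genotype alone, with Benjamini-Hochberg adjustment. The SE is the log2 fold change over the square root of F, an approximation. RPKM used exon lengths of M21, joined over all annotated transcripts of a gene, and served only to compare genes. Promoters came from RefSeq and were not joined to reads by coordinates. Alternatives were RLE size factors, library size only, DESeq2 1.42.0, limma-voom (limma 3.58.1), no filter, a filter at mean CPM 1, a replicate block, chromosome medians removed, and each sample left out. The test was first tested on simulated data. There it recovered 47.8% of genes given a log2 change of 0.5 and 89.4% of those given 1, so small changes can be missed. Groups of 3 do not allow a test of outlying samples.

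The genes, their placement in arms and the other lists were chosen with earlier results of these data known. Named are all 37 genes, Col4a3, markers, and in each of 9 further lists (174 of 175 genes matched) the 3 with the smallest adjusted p and any gene at no count in all samples of a genotype. Cbs, Cth, Mthfd2, Nup62, Il4i1, Nr4a1, Fosb, Egr1 and Fos were named outside this rule, after their values were seen. A marker on the podocyte list is not reported here.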

Additional observations from a re-analysis of the deposited data

How the results depend on the processing

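Under the 14 alternatives 6 to 9 of the 37 genes were higher and 6 to 9 were lower. Of 517 single values, 469 kept direction and side of the threshold, 23 lost the threshold, 3 gained it and 22 turned direction, 1 of them in a called gene. Atf4, Atf5, Ddit3, Trib3, Hyou1, Dnajc3, Ero1l, Creb3l1, Creb3l2 and Edem1, 10 of the 17 called genes, kept their calls under all 14. With chromosome medians removed, the log2 fold change turned to -0.22 for Calr, -0.036 for Creld2, 0.057 for Pdia4, 0.024 for Xbp1, 0.18 for Asns, -0.0011 for Herpud1, -0.093 for Syvn1 and -0.058 for Derl1. With library size only, it turned to 0.021 for Xbp1 and 0.00019 for Asns, and Ern1 lost its call. Without a filter Ern1 also lost its call and Atf3 gained one (-0.90, adjusted p = 0.0084). The cause of these changes was not tested.

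With single samples left out, 6 to 9 genes were higher and 6 to 9 lower. Values ranged from -0.0075 to 0.042 for Canx, -0.019 to 0.040 for Dnajb9, -0.051 to 0.034 for Xbp1, -1.38 to 0.93 for Atf3, -0.16 to 0.017 for Ppp1r15a and -0.15 to 0.047 for Asns.

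With a replicate block 8 genes were higher and 9 lower, the same 17 genes. Nothing in the labels says what samples with the same number share. Their deviations from the group mean correlated at 0.0526 to 0.147, against -0.130 to 0.0571 for other numbers, which did not reach 0.1 in all 3 pairs, so the numbers were not taken as pairs. Each sample but WT sample 3 correlated best with the sample of its own number. The groups of 3 limit the precision, and a gene that was not called is not shown to be equal in both lines.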

Other observations

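In AS podocytes 3 of 18 cytosolic heat shock genes were higher and 4 were lower (20.4% and 19.6% of all genes tested). Bag3, which guides clients of Hsp70 to autophagy, was 200, 194 and 190 CPM in WT and 145, 130 and 140 CPM in AS samples (log2 fold change -0.49, SE 0.06, adjusted p = 1.8e-04, edgeR's quasi-likelihood test). Cryab, a small heat shock protein, was 994, 1154 and 1043 CPM in WT and 789, 767 and 737 CPM in AS samples (-0.48, SE 0.07, adjusted p = 7.8e-04). Hspa1b, an inducible Hsp70 whose reads can be shared with its near-identical copy, was higher (0.84, SE 0.14, adjusted p = 0.0014). Of 13 mitochondrial chaperones and proteases, 2 were higher (Lonp1 by 0.20, SE 0.05, and Spg7 by 0.26, SE 0.07) and Hspd1 was lower (-0.22, SE 0.06). The chromosome medians were not subtracted from the heat shock and mitochondrial values either, and the chromosomes of these genes are not given.

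The high Atf3 value of WT sample 1 stood beside high values of other immediate-early genes in the same sample, which were chosen after their values were seen. Nr4a1 was 233, 9.40 and 3.62 CPM in the WT samples and 31.7, 11.5 and 5.09 CPM in the AS samples. Fosb was 44.0, 6.09 and 4.25 CPM in WT and 13.2, 7.92 and 3.42 CPM in AS samples. Egr1 was 754, 228 and 159 CPM in WT and 366, 301 and 210 CPM in AS samples. Fos was 133, 87.6 and 46.7 CPM in WT and 70.6, 86.9 and 50.5 CPM in AS samples. Sample 1 was the highest of its genotype for Atf3, Nr4a1, Fosb and Egr1 in both WT and AS podocytes, and for Fos in WT podocytes but not in AS podocytes. Their part in the Atf3 value was not tested.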
